A study of Tupaia belangeri with 6 samples.

Results

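The transcripts described here are 814 stretches of the tree shrew genome that were transcribed in the prefrontal cortex of every animal studied, that had a strand, and that carried no gene name and shared no base with a named gene. They were taken from a list of 95863 loci measured in each of 6 animals. Of these loci, 23958 were unnamed, lay on an autosome, had a plus or minus strand and overlapped no named locus. The 814 members, 3.40% of them, were those that reached at least 1 TPM in all 6 animals, where TPM is a level of transcript scaled for its length and for the size of the library. Of the remainder, 17959 were listed at 0 in all 6 animals and 5185 were above 0 in some animal but under 1 TPM in at least 1. The members were thus chosen by their TPM in the 6 animals, and these levels are given as a description without a test. The rule also used position, in that it asked for an autosome and no overlap with a named locus, and a minimum in every animal limits the spread of low members. It did not use span or the difference between the sexes.

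Tupaia belangeri, the tree shrew, is a primate-like animal kept for studies of the brain. Polyadenylated RNA from the prefrontal cortex was sequenced in 3 adult females, with the numbers 1, 3 and 4, and in 3 adult males, with the numbers 1, 4 and 5, with no treatment in either sex. Each animal gave 1 library, so the spread between libraries holds that between animals. The males were older than the females in the study's overview of its animals, so sex and age cannot be told apart.

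The assembly of reads into transcripts was guided by a reference annotation but could also add loci that it lacks, and an added locus that matches no gene receives a running number in place of a name. Such loci can be long noncoding RNAs, which are transcripts with no long reading frame that often lie beside genes for developmental regulators. They can equally be the ends of neighbouring genes, or protein-coding genes that the annotation left out. The protocol of these libraries names no step that marks the strand of a read, and strand-specific counting is not stated in the sources used here. The strand of a locus is given as in the tables, and the levels of overlapping loci on opposite strands are uncertain.

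All 814 members carried the running numbers (MSTRG) of the assembler. The candidates included 8734 such loci and 15178 loci with the identifiers of long noncoding RNAs that the reference annotation already listed (LINC), and none of the latter became a member. The LINC locus that came closest had 0.796 TPM in its lowest animal. The label of the group was checked against these facts: the members were unnamed and apart from named genes, but no value in the tables says whether they are coding or noncoding.

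Members lay on 30 autosomes, with 66 on chromosome 2, 51 on chromosome 9, 49 on chromosome 1 and 46 on chromosome 22. The minus strand held 463 of them and the plus strand 351. The span of a locus, introns included, had a median of 17665 bp, with quartiles of 4723.5 and 56340.5 bp. Only 28 members were under 1 kb, while 285 spanned 1 to 10 kb, 384 spanned 10 to 100 kb and 117 spanned at least 100 kb. The 9469 named stranded autosomal genes with at least 1 TPM in all 6 animals had a median span of 53237 bp. The 422 loci without a strand that passed the same level and also lay apart from named genes had a median span of 1328.5 bp. The members therefore lay between named genes and strandless fragments in span. This was not particular to them: the 1559 unnamed stranded autosomal loci of the same level that overlapped a named gene had a median span of 16858 bp.

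The extremes of span were described with their levels. The longest member was MSTRG.5230 on chromosome 10 (TS_3.0 chr10:39647224-40710661, plus strand), which spanned 1063438 bp and had 19.4 to 40.9 TPM. It was followed by MSTRG.61333 on chromosome 8 with 775648 bp and 2.85 to 4.99 TPM, MSTRG.25689 on chromosome 2 with 717868 bp and 5.35 to 15.5 TPM, and MSTRG.62877 on chromosome 9 with 702172 bp and 4.24 to 11.5 TPM. The longest of these were thus low to moderate in level. MSTRG.52061 on chromosome 5, with 634679 bp, stood higher at 68.9 to 172 TPM and ended 45376 bp before FZD1, a Wnt receptor. The shortest member was MSTRG.49781 on chromosome 5 (chr5:2647315-2647587, minus strand), with 273 bp and 1.06 to 4.49 TPM. The next shortest, MSTRG.25146, MSTRG.29527, MSTRG.35151 and MSTRG.32779, had 366, 388, 391 and 404 bp, and their levels in single animals ran from 1.05 to 18.9 TPM.

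The median member had 16.4 TPM (median over the 6 animals), with quartiles of 5.72 and 50.5 TPM and a range from 1.27 to 2655 TPM. Named genes under the same rule of level had a median of 24.6 TPM, unnamed loci that overlapped a named gene had 9.36 TPM (n = 1559), and strandless intergenic loci had 3.72 TPM. By median level, 315 members were under 10 TPM, 380 were at 10 to 100 TPM, 112 at 100 to 1000 TPM and 7 above 1000 TPM. Together the members held 6.83% ± 0.152 (SD, n = 6 animals) of the TPM of all stranded autosomal loci. The sexes did not overlap in this share, with 6.61% to 6.78% in the females and 6.93% to 6.98% in the males. The 119 members of at least 100 TPM held 74.1% of the members' TPM, and the 12 strongest held 24.9%. Span and level rose together weakly over the members (Spearman's rho 0.23, n = 814, a description since all members share the 6 libraries).

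**Figure D1:**
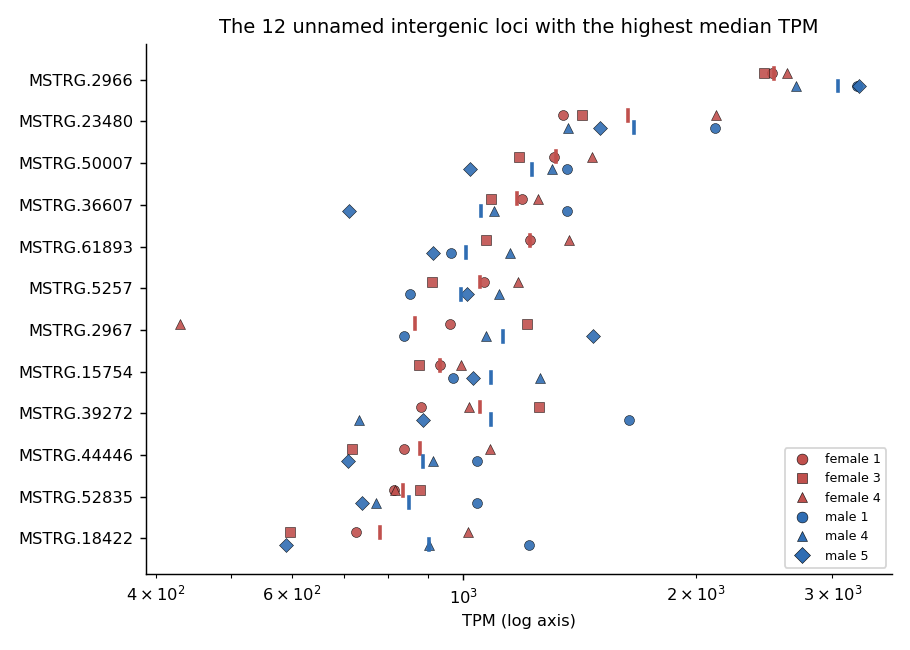
TPM of the 12 members with the highest median level in each animal, on a log axis; red symbols are females, blue symbols are males, symbol shape gives the animal number and the vertical bars are the means of 3 animals. MSTRG.2966 stands apart at 2446 to 3244 TPM, and the sexes overlap at every other member shown.

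The strongest member was MSTRG.2966 on chromosome 1 (chr1:156692220-156896682, minus strand, 204463 bp). It had 2503, 2446 and 2621 TPM in females 1, 3 and 4, and 3225, 2689 and 3244 TPM in males 1, 4 and 5. Every male was above every female, with means of 3053 ± 315 and 2523 ± 89.5 TPM (SD, n = 3 each). The difference of -0.27 ± 0.33 (female minus male, log2(TPM + 1), standard error) had an adjusted p of 0.944 in limma, a linear model fitted to all loci at once. The nearest named gene was ATF2, a transcription factor of the bZIP class, 43445 bp away on the same strand, at a median of 160 TPM.

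On the opposite strand, MSTRG.2967 (chr1:156745927-156758424, plus strand) lay whole within MSTRG.2966. It had 962, 1209 and 430 TPM in the females and 837, 1069 and 1472 TPM in the males. Female 4 was lowest and male 5 highest, a ratio of 3.42, whereas MSTRG.2966 differed by a ratio of only 1.33 between its extreme animals.

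The second in level was MSTRG.23480 on chromosome 18 (chr18:36851746-36862933, minus strand), with 1346, 1425 and 2122 TPM in the females and 2113, 1365 and 1502 TPM in the males. Female 4 and male 1 stood above the other 4 animals there. MSTRG.50007 on chromosome 5 (chr5:12393262-12405561, plus strand) had 1309, 1181 and 1469 TPM in the females and 1360, 1300 and 1019 TPM in the males, and lay 18960 bp past the 3′ end of ZMIZ2, a coactivator gene with 93.9 TPM. MSTRG.36607 on chromosome 23 (chr23:25800496-25803198, minus strand) had 1189, 1086 and 1249 TPM in the females and 1361, 1095 and 710 TPM in the males, so that male 5 was lowest. It ended 668 bp from the end of ABHD14A, which had 65.1 TPM.

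MSTRG.61893 on chromosome 9 (chr9:13591259-13597984, plus strand) had 1219, 1070 and 1368 TPM in the females and 964, 1148 and 915 TPM in the males, and its nearest named gene was USP2, a ubiquitin protease, at 76.6 TPM. MSTRG.5257 on chromosome 10 (chr10:44350394-44409192, minus strand) ran from 852 TPM in male 1 to 1177 TPM in female 4. It stood 147599 bp from the nearest named locus, which was listed at a median of 0 TPM. These were the last of the 7 members with a median above 1000 TPM, since MSTRG.2967 is the other.

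The other 5 of the 12 had medians of 815 to 981 TPM. MSTRG.15754 on chromosome 15 (1443 bp) ran from 875 to 1255 TPM, and MSTRG.44446 on chromosome 3, only 856 bp long, from 709 to 1081 TPM. MSTRG.39272, the only member on chromosome 26, ranged more widely, from 734 TPM in male 4 to 1636 TPM in male 1. MSTRG.52835 on chromosome 6 ran from 739 to 1041 TPM and MSTRG.18422 on chromosome 15 from 589 to 1214 TPM. At 6 of the 12 strongest members the nearest named locus was listed at a median of 0 TPM, and at the other 6 it had 34.0 to 160 TPM.

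The members lay close to named genes. The median distance to the nearest named gene was 8340 bp, and 331 members (40.7%) were within 5 kb, 169 of them within 1 kb. Only 54 members lay beyond 100 kb. The 23144 other unnamed stranded intergenic loci, which did not reach 1 TPM in all animals, had a median distance of 34998.5 bp, with 16.3% within 5 kb. Their median span was 4903 bp. Since a level in all 6 animals separates the groups, this is a description of where the expressed loci lay.

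**Figure D2:**
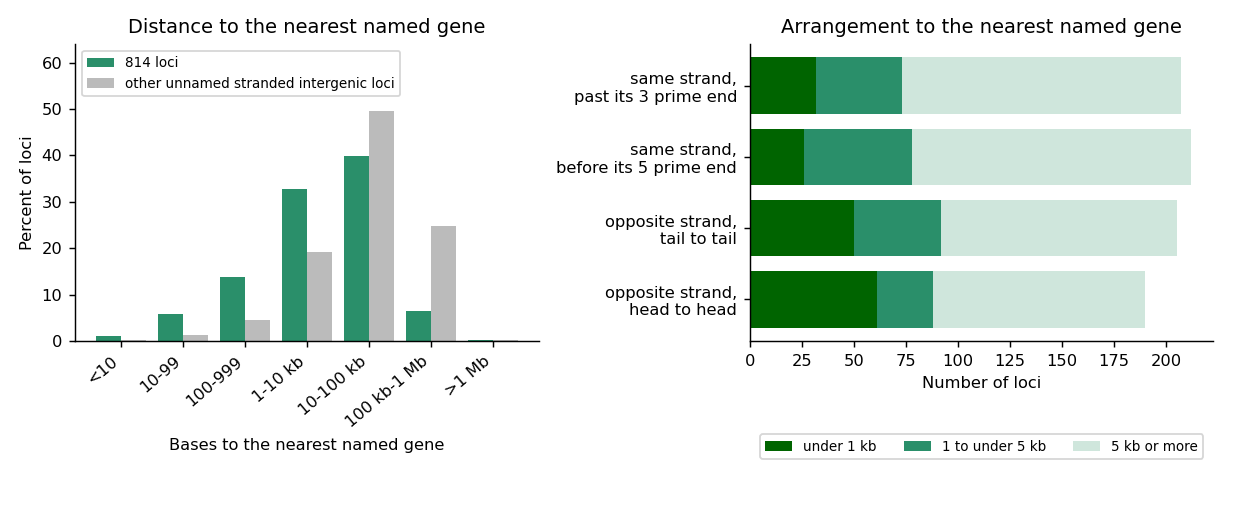
Left, percent of loci in each class of distance to the nearest named gene, for the 814 members (green) and the 23144 other unnamed stranded intergenic loci (grey). Right, number of members in each of 4 arrangements relative to that gene, shaded by distance; the 4 arrangements hold 190 to 212 members each, and the head-to-head arrangement has the most within 1 kb (61).

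All 4 arrangements were about equally frequent. The nearest named gene was on the opposite strand with the 5′ ends facing each other (head to head) at 190 members and with the 3′ ends facing each other (tail to tail) at 205. It was on the same strand with the member before its 5′ end at 212, and with the member past its 3′ end at 207. Under 1 kb, head to head came first with 61 members, followed by tail to tail with 50, past the 3′ end with 32 and before the 5′ end with 26. Members within 5 kb past the 3′ end of a named gene on the same strand, where an unannotated continuation of a gene would lie, were 73 of 814 (8.97%), and 43 of these had a higher median TPM than the gene itself. Within 5 kb, head to head held 10.8% of the members, tail to tail 11.3% and before the 5′ end 9.58%. Of the 23144 other unnamed stranded intergenic loci, 4.18% lay within 5 kb past a 3′ end, 4.77% head to head, 3.24% tail to tail and 4.15% before a 5′ end, so every arrangement within 5 kb had a larger share among the members.

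The 5 members closest to a named gene lay 0 to 3 bases from it. MSTRG.63518 on chromosome 9 (chr9:63503276-63587257, minus strand) ended 3 bases from the end of ADA, the gene of adenosine deaminase, and had 486 to 876 TPM against 5.67 TPM for ADA. The unnamed locus was there far above its named neighbour. MSTRG.33739 on chromosome 22 began 2 bases from the start of MED15, a subunit of the Mediator complex, head to head, and had 40.2 to 70.4 TPM against 74.3 TPM for MED15. MSTRG.21455 on chromosome 17 (75.9 to 182 TPM) and MSTRG.48962 on chromosome 4 (27.2 to 37.8 TPM) touched loci of 2.04 and 7.23 TPM.

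Over all members, the median TPM of the member was above that of the nearest named gene at 519 (63.8%). The nearest gene was under 1 TPM at 294 members and at 0 at 188. Of the 732 different nearest genes, many were not conventional genes. At 248 members the name ended in li and a number, the mark of numbered copies in the annotation. At 105 it was that of a predicted reading frame (TSORF). Such names can also end in li and a number, so these counts overlap. The farthest members were far from named loci, though other unnamed loci lay near some of them. MSTRG.32165 on chromosome 21 lay 1168519 bp from a named locus and had 16.5 to 26.3 TPM, and MSTRG.42347 and MSTRG.42359 on chromosome 29 lay 1152390 and 767367 bp from PLIN3 with 1.43 to 5.75 and 67.6 to 117 TPM. MSTRG.5221 and MSTRG.5207 on chromosome 10, with 2.75 to 5.55 and 32.4 to 56.8 TPM, lay 814580 and 753298 bp away.

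Intergenic here means apart from the loci that the tables name, and many genes had no named locus. RefSeq's annotation of another tree shrew assembly (TupChi_1.0) lists 16150 protein-coding genes with a symbol other than a LOC number. Genes with only a LOC number were not counted, here or between the flanks below. Of the 16150, 4383 (27.1%) had no locus of exactly that symbol in the tables. For 294 of these a numbered copy marked li was listed somewhere, and older symbols could be matched only where RefSeq gives them as synonyms. Without a locus of their symbol were genes that every brain expresses, such as ACTB (beta-actin), ENO2 (neuronal enolase) and NRGN (neurogranin). The order of genes in RefSeq was therefore read at each member. At 542 members the closest named genes on the left and right that RefSeq also holds were neighbours there, with at most 10 genes between them. At 421 of these (77.7%) RefSeq placed at least 1 protein-coding gene between them that had no locus of its symbol in the tables, and at 247 exactly 1. The same held at 4117 of 12282 other unnamed stranded intergenic loci (33.5%). When a synonym, or a numbered copy between the flanks, also counted as a named locus, a choice made after the data were seen, the shares were 420 of 542 (77.5%) and 4054 of 12282 (33.0%).

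**Figure D3:**
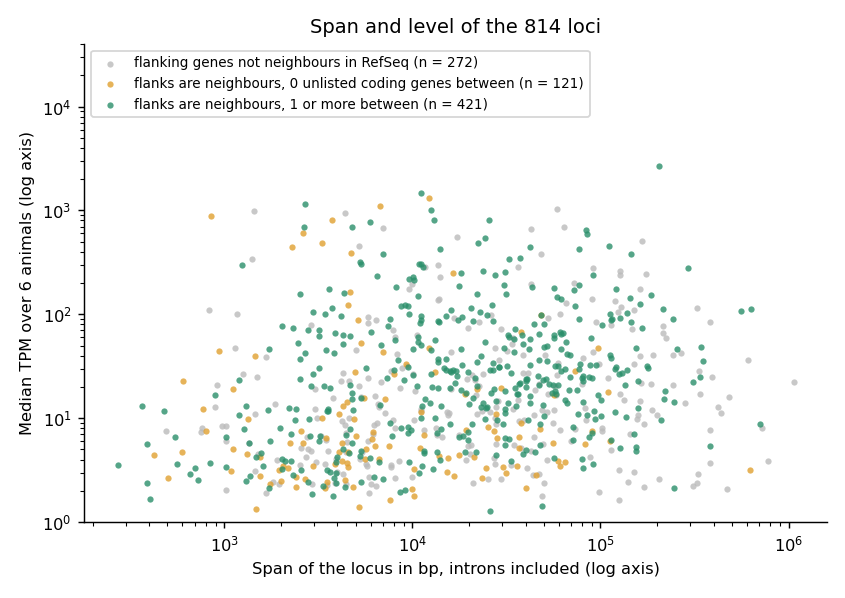
Span of each of the 814 members in bp against its median TPM, both on log axes. Green points have at least 1 protein-coding RefSeq gene without a locus of its symbol between their flanking genes (n = 421). Orange points have 0 (n = 121), where genes with only a LOC number are not counted. Grey points have flanking genes that could not be used (n = 272). Green points have a median of 23.8 TPM and orange points one of 5.78 TPM.

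The 421 members had a median of 23.8 TPM and a median span of 20387 bp, against 5.78 TPM and 5651 bp for the 121 members whose flanking genes enclosed no such gene. The 121 are not gaps without genes, since genes with a LOC number or with a locus elsewhere were not counted. RefSeq placed 0 loci of any kind between the flanks of only 27 members. Of the 12 strongest members, 5 were among the 421 and the flanks of 3 could not be used. The other 4 were among the 121 (MSTRG.50007, MSTRG.61893, MSTRG.44446 and MSTRG.18422), with 5, 6, 6 and 4 RefSeq loci of any kind between their flanks. The 12 strongest of the 247 members with exactly 1 such gene between their flanks were listed, a choice made after the values were seen. MSTRG.2966 and MSTRG.2967 lay between CHRNA1 and ATF2, where RefSeq places CHN1, the gene of a neuronal Rac GTPase-activating protein. MSTRG.22306 on chromosome 17 (chr17:56438099-56451078, plus strand; 602 to 895 TPM) lay between TUT1 and AHNAK, the place of EEF1G, a subunit of translation elongation factor 1. MSTRG.28830 on chromosome 2 (602 to 1108 TPM) lay between FUT7 and ENTPD2, the place of NPDC1, a gene of neural proliferation and differentiation.

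Further along this list, MSTRG.63518 lay between ADA and SERINC3, the place of PKIG, an inhibitor of protein kinase A. MSTRG.34485 on chromosome 22 (474 to 696 TPM) lay at the place of RPH3A, the gene of the synaptic vesicle protein rabphilin, and MSTRG.53928 on chromosome 6 (503 to 634 TPM) at that of TMBIM6, an inhibitor of cell death in the endoplasmic reticulum. MSTRG.6636 on chromosome 11 (292 to 564 TPM) lay at the place of HPCAL1, a neuronal calcium sensor, MSTRG.48315 on chromosome 4 (332 to 445 TPM) at that of OAZ2, an antizyme of polyamine metabolism, and MSTRG.11375 on chromosome 13 (301 to 448 TPM) at that of ADGRB1, an adhesion receptor of the brain. MSTRG.26774 on chromosome 2 (308 to 388 TPM) lay at the place of TMEM130, and MSTRG.36607 at that of ACY1, an aminoacylase. Gene order is no match of sequence: no member was aligned to these genes, and their strands were not compared with those of the members. RefSeq holds other loci in some of these intervals, such as that of MSTRG.36607, where it places 2 loci in all. None of the members is given a name here.

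Overlaps between unnamed loci were frequent. A total of 541 members shared bases with some unnamed locus on the other strand, 98 with a locus without a strand, and 237 with no other locus. In 64 cases both partners were members, and these pairs comprised 118 members. The stronger partner had a median of 4.61 times the TPM of the weaker, and the shared stretch a median of 2993 bp. The ratio was large at MSTRG.53928 and MSTRG.53927 on chromosome 6, which shared 2387 bp and had medians of 539 and 9.69 TPM. It was small at MSTRG.15754 and MSTRG.15753 on chromosome 15, which shared only 74 bp and had 981 and 677 TPM. How reads from the shared stretches were divided between the partners is not stated, so the levels of such pairs are uncertain.

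The animals were compared next. The coefficient of variation (CV, SD over mean of the 6 TPM values) had a median of 27.2% with quartiles of 20.01% and 40.8%, against 23.0% for named genes under the same rule of level. It fell with the level: its median was 40.5% for members under 10 TPM, 23.0% at 10 to 100 TPM and 20.2% at 100 TPM or more, and in the same bands it was 31.1%, 21.7% and 18.1% for named genes. The highest animal had a median of 2.12 times the TPM of the lowest. This ratio was under 2 at 362 members (44.5%), over 5 at 69 and over 10 at 11.

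The most even member was MSTRG.33142 on chromosome 21 (chr21:29307723-29318298, minus strand), which had 20.6, 18.9 and 20.1 TPM in the females and 21.3, 21.4 and 19.1 TPM in the males, a CV of 5.40%. MSTRG.22351, next to the fatty acid desaturase gene FADS1 on chromosome 17, followed with 46.5 to 55.1 TPM, and MSTRG.96 on chromosome 1 with 81.6 to 98.8 TPM. MSTRG.11653 on chromosome 13 (161 to 187 TPM) and MSTRG.22925 on chromosome 18 (596 to 724 TPM) had CVs of 6.41% and 7.07%. Stable members were thus found over a wide range of levels.

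The most uneven member was MSTRG.64044 on chromosome 9 (chr9:78425714-78441149, minus strand), with 27.9, 18.6 and 2.75 TPM in the females and 78.4, 1.55 and 1.71 TPM in the males. Its highest and lowest animals were both male and differed by a ratio of 50.5. MSTRG.20073 on chromosome 16 had 1.44 to 1.72 TPM in 4 animals, 4.36 TPM in male 4 and 12.6 TPM in male 5. It lay 4213 bp from the end of PTPRC, the leukocyte antigen CD45 gene. MSTRG.5988 on chromosome 10 was also highest in male 5, with 11.1 TPM against 1.60 to 2.57 TPM in the others, MSTRG.30242 on chromosome 2 in male 1, with 9.03 TPM against 1.12 to 2.53 TPM, and MSTRG.28746 on chromosome 2 in female 4, with 50.5 TPM against 6.12 to 21.3 TPM. The highest animal was male 1 at 2 of these 5 members, male 5 at 2 and female 4 at 1.

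**Figure D4:**
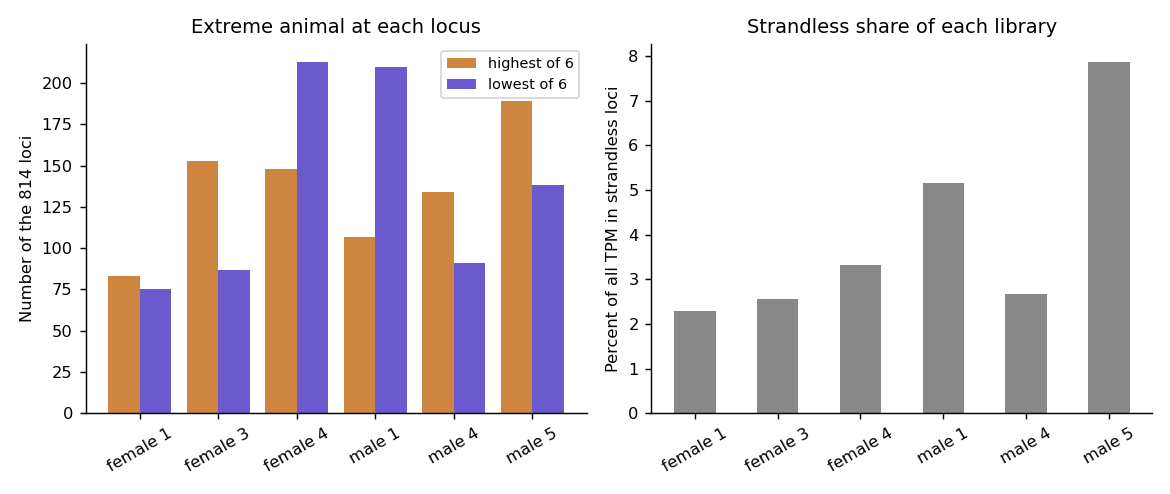
Left, number of the 814 members at which each animal had the highest (brown) or the lowest (violet) TPM of the 6. Right, percent of all TPM in each library that fell on loci without a strand; male 5 is highest on the right with 7.88% and is the most frequent highest animal of the members on the left with 189; of named genes, which are not drawn, female 3 was most often the highest.

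Some animals were at the ends more often than others. Female 4 was the lowest animal at 213 members and male 1 at 210, whereas female 1 was lowest at 75 and highest at 83. Male 5 was highest at 189. Female 4 or male 1 was the lowest animal at 52.0% of the members, and at 56.2% of the named genes of the same minimum level. Male 5 was the highest animal at 23.2% of the members and 20.3% of those named genes, and female 3 at 18.8% and 25.5%. Loci without a strand held between 2.30% and 3.33% of the TPM in a female library and, in males 1, 4 and 5, 5.16%, 2.67% and 7.88%. The share was highest in male 5, and its part in the members' levels was not tested. The summed TPM of the members differed little between animals, from 57556 to 60171 TPM. The means were 58558 ± 211 TPM in the females and 58707 ± 1335 TPM in the males (SD, n = 3 each), a difference smaller than the spread of the males. The sexes overlapped in this sum. They did not overlap in the members' share of stranded autosomal TPM given above, with 6.61% to 6.78% in the females and 6.93% to 6.98% in the males. The cause of this difference between the measures was not tested.

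Whether single members differed between females and males was asked by limma on log2(TPM + 1), fitted to the loci of the autosomes and X that passed a filter on low values and adjusted by Benjamini-Hochberg over the 27996 autosomal ones. None of the 814 members passed an adjusted p of 0.1 (smallest 0.925 in limma), and 4 of all loci did (0.0143%). At an unadjusted p under 0.05 there were 19 members higher in females (2.33%, background 2.42%) and 16 higher in males (1.97%, background 2.62%). All 3 females were above all 3 males at 42 members (5.16%, background 4.84%), and all 3 males above all 3 females at 43 (5.28%, background 4.97%). Among the named genes of the same minimum level the shares by unadjusted p were 3.08% higher in females and 0.929% higher in males, and those without overlap 5.95% and 2.78%. The members' shares lay near or below those over all loci tested. The median difference was 0.01 over the members and -0.03 over all autosomal loci (female minus male, log2), and the standard error of a member had a median of 0.31. Only 17 members had a difference of at least 1 in size, with a range from -1.75 to 1.28.

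**Figure D5:**
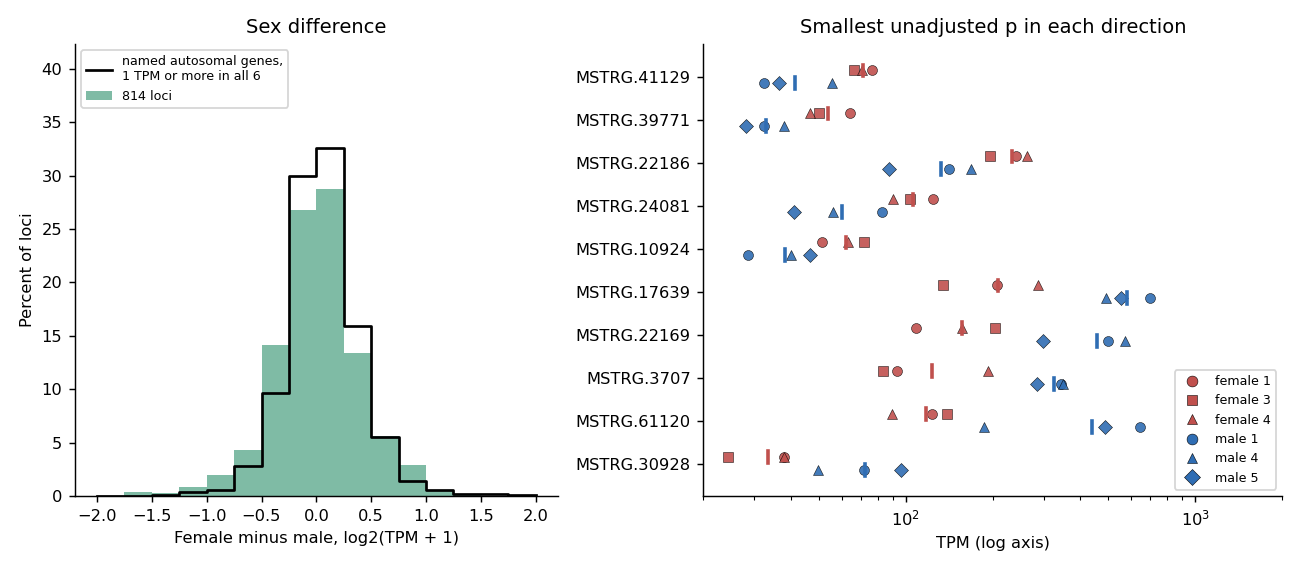
Left, distribution of the female minus male difference on the log2(TPM + 1) scale for the 814 members (green bars) and for 9469 named autosomal genes of the same minimum level (black line), in percent of loci. Right, TPM per animal on a log axis (red females, blue males, bars the means of 3) for the 5 members with the smallest unadjusted p in each direction; the sexes do not overlap at these 10 members, and none passed the adjustment.

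The 10 members with the smallest unadjusted p were chosen for their difference and are described only. MSTRG.17639 on chromosome 15 (chr15:49851056-49855764, minus strand, before the chloride channel gene TTYH2) had 206, 134 and 285 TPM in the females and 696, 490 and 553 TPM in the males. The difference was -1.52 ± 0.29 with an adjusted p of 0.925 in limma. MSTRG.22169 on chromosome 17 (chr17:53440054-53456590, plus strand) had 108, 203 and 157 TPM in the females and 499, 574 and 299 TPM in the males. Female 1 was lowest and male 4 highest there. MSTRG.3707 on chromosome 1 (chr1:199783270-199874492, plus strand), between MARCHF4 and IGFBP2, had 93.1, 83.6 and 192 TPM in the females and 344, 348 and 284 TPM in the males. At all 3 the lowest male was above the highest female.

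MSTRG.61120 on chromosome 8, a 4660-bp locus between SOX21 (a neural transcription factor) and GPR180, had 123, 138 and 89.9 TPM in the females and 647, 186 and 488 TPM in the males. Its difference of -1.75 ± 0.42 was the largest of any member, and male 4 was much nearer to the females than the other males were. MSTRG.30928 on chromosome 20 had 24.3 to 38.0 TPM in the females and 49.8 to 95.9 TPM in the males.

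The 5 members higher in females had differences of 0.69 to 0.85. MSTRG.41129 on chromosome 27 (chr27:21315700-21326433, plus strand), between CBLC and NECTIN2, had 76.2, 66.1 and 70.3 TPM in the females and 32.3, 55.7 and 36.4 TPM in the males, a difference of 0.80 ± 0.22. MSTRG.39771 on chromosome 27 had 46.8 to 64.3 TPM against 28.1 to 37.8 TPM, and MSTRG.22186 on chromosome 17 had 195 to 262 TPM against 87.6 to 168 TPM. MSTRG.24081 on chromosome 18 had 90.1 to 124 TPM against 41.1 to 83.0 TPM, and MSTRG.10924 on chromosome 12 had 51.3 to 71.5 TPM against 28.4 to 46.6 TPM. RefSeq places ARL2 (a small GTPase), RGS14 (a regulator of G-protein signalling) and EIF4G3 (a translation initiation factor) between the flanks of the last 3, in that order.

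The composition of the tissue was checked by marker genes. Neuronal markers with a locus (6 of 8) summed to 7130 to 9336 TPM in the females and 7812 to 7958 TPM in the males, and each of the 4 astrocyte and 5 microglia markers overlapped between the sexes. The sum of the 3 endothelial markers overlapped too, most of it PECAM1, but CLDN5 (33.5 to 60.7 against 23.2 to 28.9 TPM) and FLT1 (27.1 to 31.7 against 23.2 to 26.8 TPM) did not overlap, with the females above. Oligodendrocyte markers with a locus (3 of 4) summed to 348 to 482 TPM in the females and 80.7 to 236 TPM in the males, and blood markers with a locus (3 of 5) to 1275 to 2542 TPM and 62.7 to 101 TPM. Of the oligodendrocyte markers, MAG was higher in every female (247 to 346 against 63.4 to 146 TPM), whereas MBP (9.79 to 13.7 against 7.07 to 13.6 TPM) and MOG (63.0 to 126 against 10.2 to 76.4 TPM) overlapped. In tissue RNA, fewer cells of a type and less RNA per cell cannot be told apart. The part of these lists in the members' differences was not tested. One member is given here that was chosen after its values were seen: MSTRG.18177 on chromosome 15 (chr15:65073735-65111059, minus strand) lay between DNAJC7 and ACLY, where RefSeq places ODAD4 and CNP, the latter a myelin enzyme of oligodendrocytes. It had 509, 423 and 329 TPM in the females and 369, 187 and 136 TPM in the males. The oligodendrocyte marker sums were 482, 348 and 399 TPM in the females and 236, 125 and 80.7 TPM in the males, so that females 3 and 4 stood in the reverse order, and their part in this member was not tested. The sexes overlapped at this member in male 1, and the difference of 0.97 ± 0.35 had an adjusted p of 0.925 in limma.

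Members beside genes of brain development were looked up from 2 lists. Of 72 transcription factors of the forebrain, 62 had a locus, and 9 of these were the nearest gene of 11 members (1.35% of members). Of 40 genes that flank known long noncoding RNAs in human, 27 had a locus, and 3 of these, DLX5 and MEF2C among them, were the nearest gene of 5 members, all of which are also among the 11. Most of these members were low in level.

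Near DLX5, a factor of inhibitory interneurons, a pair of members on opposite strands shared 48817 bp. The minus-strand member MSTRG.52214 (chr5:102255405-102307110) had 12.3, 26.3 and 10.7 TPM in the females and 15.2, 10.6 and 8.94 TPM in the males. The plus-strand member MSTRG.52215 (chr5:102257586-102306402) had 13.4, 19.7 and 10.8 TPM in the females and 14.3, 7.13 and 6.70 TPM in the males. Both were highest in female 3 and lowest in male 5, their levels are uncertain for the same reason as those of other pairs, and DLX5 itself had a median of 16.8 TPM.

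MSTRG.35721 lay 603 bp from the end of MEF2A and had 6.69 to 17.1 TPM, and MSTRG.2369 lay 64 bp from the start of ZEB2, head to head, with 1.03 to 3.74 TPM. MSTRG.41933, 50411 bp past the end of the chromatin organizer SATB1, had 2.26, 1.81 and 1.83 TPM in the females and 3.79, 5.59 and 9.45 TPM in the males, and did not overlap between the sexes (adjusted p 0.925 in limma). MSTRG.6730, 205590 bp from SOX11, also did not overlap, with 8.19 to 9.93 TPM in the females and 3.94 to 6.67 TPM in the males. MSTRG.47810 near BCL11B (2.42 to 7.19 TPM), MSTRG.6806 near MYT1L (2.50 to 13.5 TPM) and MSTRG.5988 near MEF2C, described above, overlapped between the sexes.

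The threshold of 1 TPM did not fall at a gap. The members just inside it were MSTRG.17448, MSTRG.55993 and MSTRG.8408, with a lowest animal at 1.009, 1.01 and 1.01 TPM and medians of 2.29, 1.91 and 1.64 TPM. The loci just outside it were MSTRG.17418, MSTRG.39784 and MSTRG.24381, with a lowest animal at 0.987, 0.986 and 0.977 TPM and medians of 2.67, 1.56 and 2.13 TPM.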

How the data were processed

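RNA was extracted with TRIzol, enriched for poly(A) tails, fragmented, copied into cDNA and sequenced in paired ends. Per the study's methods and the submitters' processing notes, reads were aligned by the authors with HISAT2 2.2.1 against TS_3.0, assembled per animal by StringTie 2.2.1, joined with the annotation and quantified over the joint set. Deposited TPM values express each locus relative to the whole library, the deposited FPKM values were used in an alternative only, and the deposited coverage (signal) was not used for any result. Reads per locus are not listed, so the depth of a value is unknown, no counting intervals are given, and the count model of the study could not be run.

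Here, entries that shared a gene ID and a chromosome were added up, and the male-only segments of chromosomes X and 26 were left out. A locus was called named if the table gave it a gene name. Every locus that reached 0.1 TPM in no fewer than 3 animals was fitted with limma 3.58.1 (R 4.3.3) with a mean-variance trend on log2(TPM + 1), so fold changes of low loci are understated, and p-values of autosomal loci were adjusted together (threshold 0.1). Other steps used Python 3.11.15 with pandas 2.3.3, numpy 2.4.6 and scipy 1.17.1, and figures matplotlib 3.10.9. On simulated data for the female against male comparison over 28740 loci, 8, 22, 39 and 42 of 50 loci changed by a log2 fold of 1, 2, 3 and 4 were recovered, with 17 other calls.

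Members and lists were chosen with earlier results of these data known. Named by rule were the 12 strongest members, the 5 with the smallest p in each direction, the 5 at each end of CV, span and distance, the 3 on either side of the threshold, and members beside listed genes, of which some are not reported here. RefSeq symbols of TupChi_1.0 served for gene order only. No sequence of TS_3.0 was used here, so none is shown. Alternatives changed the pseudocount, filter, scaling, trend, unit, threshold, window, replicate block and the animals included.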

Additional observations from a re-analysis of the deposited data

How the results depend on the processing

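No member passed an adjusted p of 0.1 in limma under any alternative run, including pseudocounts of 0.1 and 0.01, other filters, scalings, FPKM and each animal left out. The counts at an unadjusted p under 0.05 were less stable. Against 19 members higher in females, limma without the trend gave 11, and leaving out 1 animal gave 7 (without female 1) to 53 (without male 4), with 9 without male 5. Against 16 higher in males, leaving out 1 animal gave 7 (without male 5) to 27 (without male 1), with 9 without female 1 and 24 without male 4. With the animal number as a replicate block the counts were 16 higher in females and 5 higher in males. The numbers name different animals, only numbers 1 and 4 occur in both sexes, and the deviations of same-numbered animals correlated at 0.001 and 0.038, so they do not pair the animals. The summed TPM of the members differed by -149 TPM (female minus male), by -2955 TPM after quantile normalization, and by -724 to 583 TPM with 1 animal left out, which turns the sign without male 4. Requiring that no named locus lie within 1000 bp left 645 members, with a median distance of 14207 bp, 6.36% within 5 kb past a 3′ end and 5.35% of stranded autosomal TPM. A window of 2 kb or 10 kb in place of 5 kb gave 5.41% and 12.04% past a 3′ end. The threshold at 0.5 and 2 TPM gave 960 and 680 members, and 1 FPKM gave 560. The cause of these shifts was not tested. Counting synonyms and numbered copies as named loci, added after the data were seen, left 420 of 421 members with an unlisted RefSeq gene between their flanks. Of 160 refits of the 10 members with the smallest p, 0 were called, the smallest adjusted p was 0.122 and 0 turned in sign.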
